A study of Mus musculus with 4 samples.

Results

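The genes described here are 46 genes of mitosis and of the G2 to M transition, chosen by symbol from the 17454 genes of the deposited table, and a row was found for each of the 46. They were measured by RNA sequencing of double negative T cells sorted from the liver of adult C57BL/6 mice, a gate of living CD45+ CD3+ cells that lack NK1.1, CD4 and CD8. One group of mice ate a normal diet and the other a methionine-choline deficient diet, a feed that produces fatty liver with inflammation, and each diet had 2 libraries. The mice carried no stated mutation, and how many animals gave each library is not given in the sources used here, so the p-values cover the spread from library to library, which may be technical. Values were taken as FPKM, a level scaled by transcript length and by mapped fragments, and read depth is unknown.

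Cells that divide switch on a common set of genes late in the cycle. Cyclins A and B with the kinase Cdk1 bring cells into mitosis, Aurora and Polo-like kinases and kinesin motors build the spindle, the spindle checkpoint holds sister chromatids together until every kinetochore is attached, and the anaphase-promoting complex (APC/C) then has securin and cyclins destroyed. In resting cells most of these genes are held off by the DREAM complex, whose MuvB core binds a promoter element called the cell cycle genes homology region (CHR). In cycling cells MuvB joins B-Myb and Foxm1 and the genes are switched on, with CCAAT boxes bound by NF-Y close by. Among T cells the set marks those that are dividing.

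All 46 genes were lower on the deficient diet, with both deficient diet libraries below both normal diet libraries in each. Over genes above 0 in any library, 22.8% had this arrangement. The 46 genes and the lists below were chosen with earlier results of these data known, so their counts are not independent of those results. Summed over the 46 genes, the level was 484.9 and 600.1 FPKM with the normal diet and 99.8 and 107.1 FPKM with the deficient diet, or 0.125% and 0.162% against 0.0267% and 0.0279% of each library's total. The ratio of mean FPKM between the diets (normal over deficient) had a median of 6.09 over the 46 genes and ran from 1.34 for Plk4 to 19.6 for Kif15. It was at least 5 in 31 of the 46 genes, among them Cdk1 and Cks2, which were not tested, and 2.26% of all tested genes reached that ratio. With bulk RNA, fewer dividing cells and less of this RNA per cell cannot be told apart. Changes were tested with limma on log2(FPKM + 1), for genes that reached 1 FPKM in 2 or more libraries, with Benjamini-Hochberg adjustment over all 10423 genes tested and a threshold of 0.05. From here on, a gene said to fall or rise is one that passed this threshold. Of the 44 members tested 20 fell and 0 rose, while 1.53% of all tested genes were called lower and 1.22% higher. The 24 others had fitted changes below 0 that did not pass. Cdk1 and Cks2 were too low to test. The count of 20 is not independent of the filter, since 16 of the 44 reached 1 FPKM in the normal diet libraries alone. Among these 16 were 4 of the 20 called, Plk1, Kif15, Hmmr and Prc1. Without normal diet replicate 1, deficient diet replicate 1 or deficient diet replicate 2 no member passed in limma (23, 37 and 35 members then had an unadjusted p under 0.05), and without normal diet replicate 2 the count was 11 of 28 tested. The calls were also lost without the filter on low values, where 42 of the 46 had an unadjusted p under 0.05 in limma.

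**Figure D1:**
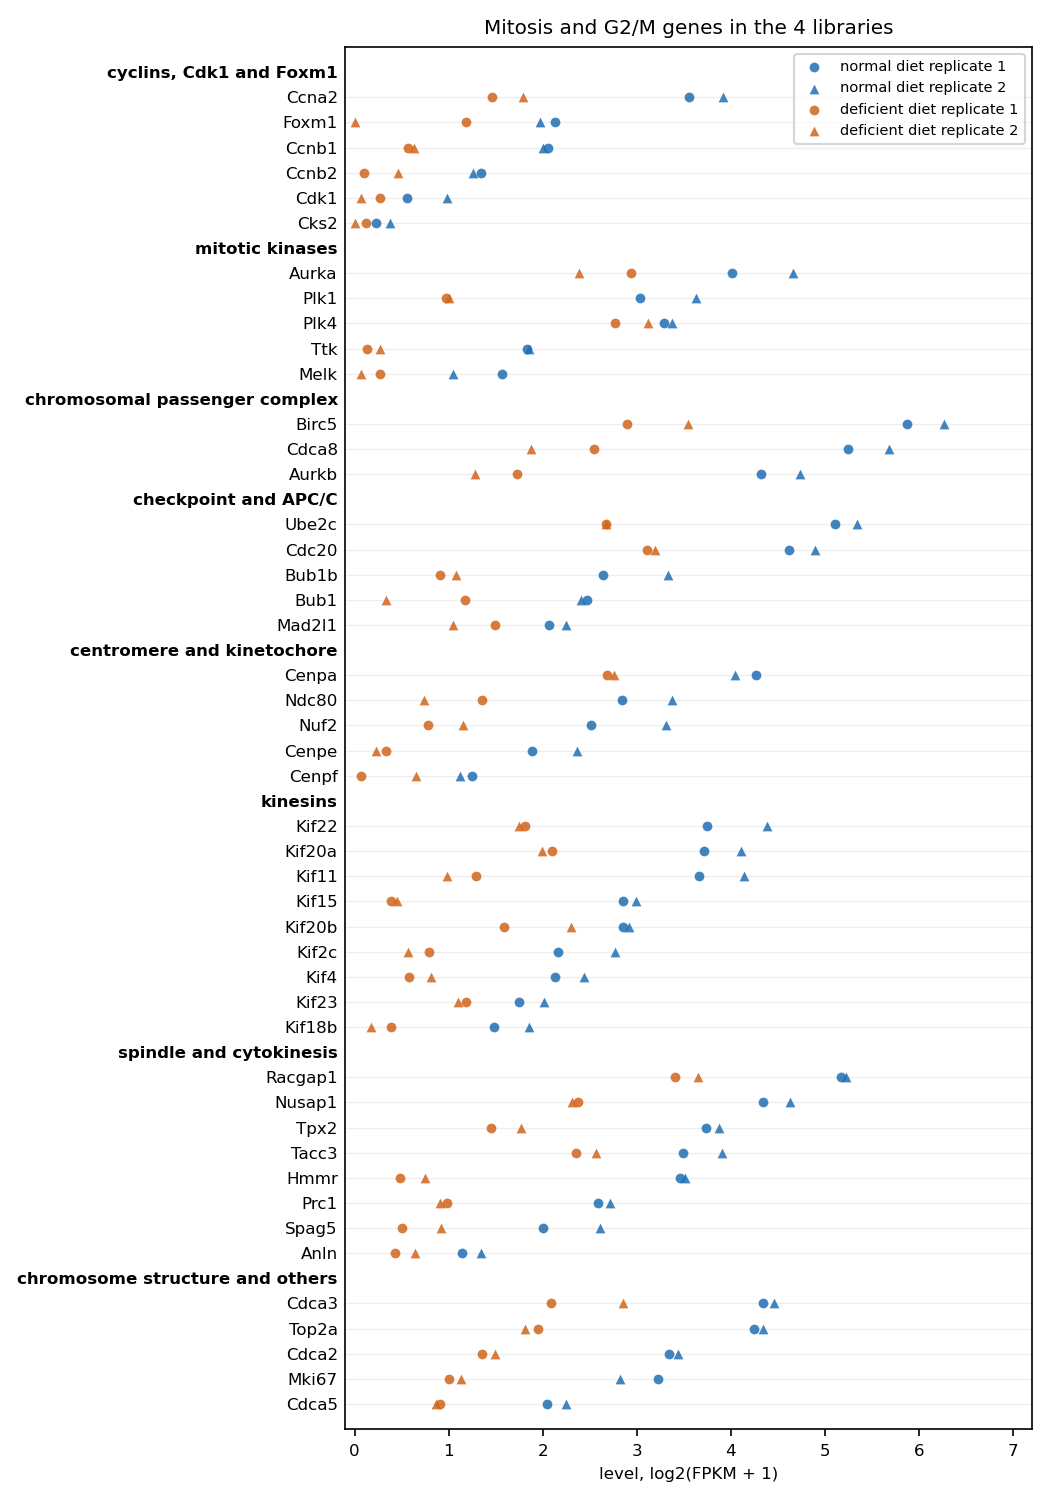
Level of each of the 46 genes in each library, as log2(FPKM + 1), grouped by role; blue marks normal diet, orange deficient diet, circles replicate 1 and triangles replicate 2. The blue points of every gene lie to the right of its orange points, with the narrowest separation at Plk4 and Cks2.

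Promoter sequences are shown because the genes moved together and many are known targets of the CHR. RefSeq windows (build GRCm38.p6, from 250 bases before to 50 after the annotated start) were at hand for 40 of the 46 genes. They were searched on both strands for the CHR hexamers TTTGAA and TTCGAA and for the CCAAT box. Capitals mark the matches (TTTGAA reads TTCAAA and CCAAT reads ATTGG on the other strand), and neighbouring matches may share bases, as in TTTGAATTGG of Cdca8. Cdc20 (chr4:118437294-118437593, minus strand), Ube2c (chr2:164769679-164769978, plus strand), Hmmr (chr11:40733388-40733687, minus strand) and Cdca8 (chr4:124936868-124937167, minus strand) are called members with both motifs. Plk4 (chr3:40799701-40800000, plus strand) is the member with the smallest mean ratio between the diets and has neither match in this window. Neither match was found in 7 of the 40 windows, among them those of Birc5 and Nusap1, which are called members. The choice of these 5 was made after the values were seen.
Cdc20: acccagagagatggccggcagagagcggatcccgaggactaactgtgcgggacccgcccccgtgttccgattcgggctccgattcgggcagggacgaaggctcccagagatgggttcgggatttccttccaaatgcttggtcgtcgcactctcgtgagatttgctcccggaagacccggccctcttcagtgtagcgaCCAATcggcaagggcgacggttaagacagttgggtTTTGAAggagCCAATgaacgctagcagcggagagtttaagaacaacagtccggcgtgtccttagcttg
Ube2c: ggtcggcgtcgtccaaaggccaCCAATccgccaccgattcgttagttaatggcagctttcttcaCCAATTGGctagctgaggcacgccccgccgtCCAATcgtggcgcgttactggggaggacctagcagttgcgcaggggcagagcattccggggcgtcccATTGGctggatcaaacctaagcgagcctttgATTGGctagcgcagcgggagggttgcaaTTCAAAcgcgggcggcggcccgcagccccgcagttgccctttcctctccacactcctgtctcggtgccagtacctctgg
Hmmr: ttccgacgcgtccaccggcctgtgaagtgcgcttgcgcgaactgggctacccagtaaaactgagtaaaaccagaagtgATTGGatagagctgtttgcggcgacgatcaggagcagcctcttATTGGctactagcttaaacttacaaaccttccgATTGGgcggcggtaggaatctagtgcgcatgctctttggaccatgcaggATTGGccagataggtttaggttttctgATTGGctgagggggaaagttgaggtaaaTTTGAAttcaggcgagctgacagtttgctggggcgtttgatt
Cdca8: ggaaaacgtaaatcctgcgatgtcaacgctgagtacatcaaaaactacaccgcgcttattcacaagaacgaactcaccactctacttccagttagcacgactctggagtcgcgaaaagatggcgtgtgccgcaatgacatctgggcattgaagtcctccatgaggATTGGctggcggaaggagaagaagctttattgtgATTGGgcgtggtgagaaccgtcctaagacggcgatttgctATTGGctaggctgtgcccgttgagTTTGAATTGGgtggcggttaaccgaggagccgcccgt
Plk4: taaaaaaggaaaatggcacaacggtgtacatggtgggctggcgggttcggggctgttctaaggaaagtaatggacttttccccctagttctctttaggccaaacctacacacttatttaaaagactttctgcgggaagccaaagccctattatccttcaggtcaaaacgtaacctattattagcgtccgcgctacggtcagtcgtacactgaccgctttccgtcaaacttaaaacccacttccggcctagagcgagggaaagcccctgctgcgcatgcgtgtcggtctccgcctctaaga

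A CHR hexamer was present in 30 of the 40 windows (75%), against 19.4% of the first listed windows of all 27025 genes and 13.9% of the 7930 tested genes with a window. Within 50 bases of the start it was present in 28 of 40 (70%), against 5.29% of all windows and 3.49% of those of tested genes. The CCAAT box was found in 27 of 40 (67.5%), against 37.9% of all windows and 39.3% of those of tested genes. Both motifs were found in 24 (60%), against 7.70% and 5.86%. The median GC content was 59% in the members' windows, 52.7% in all windows and 60.7% in those of tested genes. Of 75 other mitosis genes, a list described further on, 56 had a window, and 58.9% of those held a CHR hexamer (42.9% within 50 bases of the start) while 67.9% held a CCAAT box. Of 57 S phase genes, 43 had a window, and the shares were 16.3% (4.65% within 50 bases) and 60.5%. The differences between these lists were not tested. Members with a hexamer (29 tested) had a median log2 change of -1.68 and 13 were called; members without one (9 tested) had a median of -1.43 and 2 were called, Birc5 and Nusap1. A match of letters is a description and not a bound site.

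**Figure D2:**
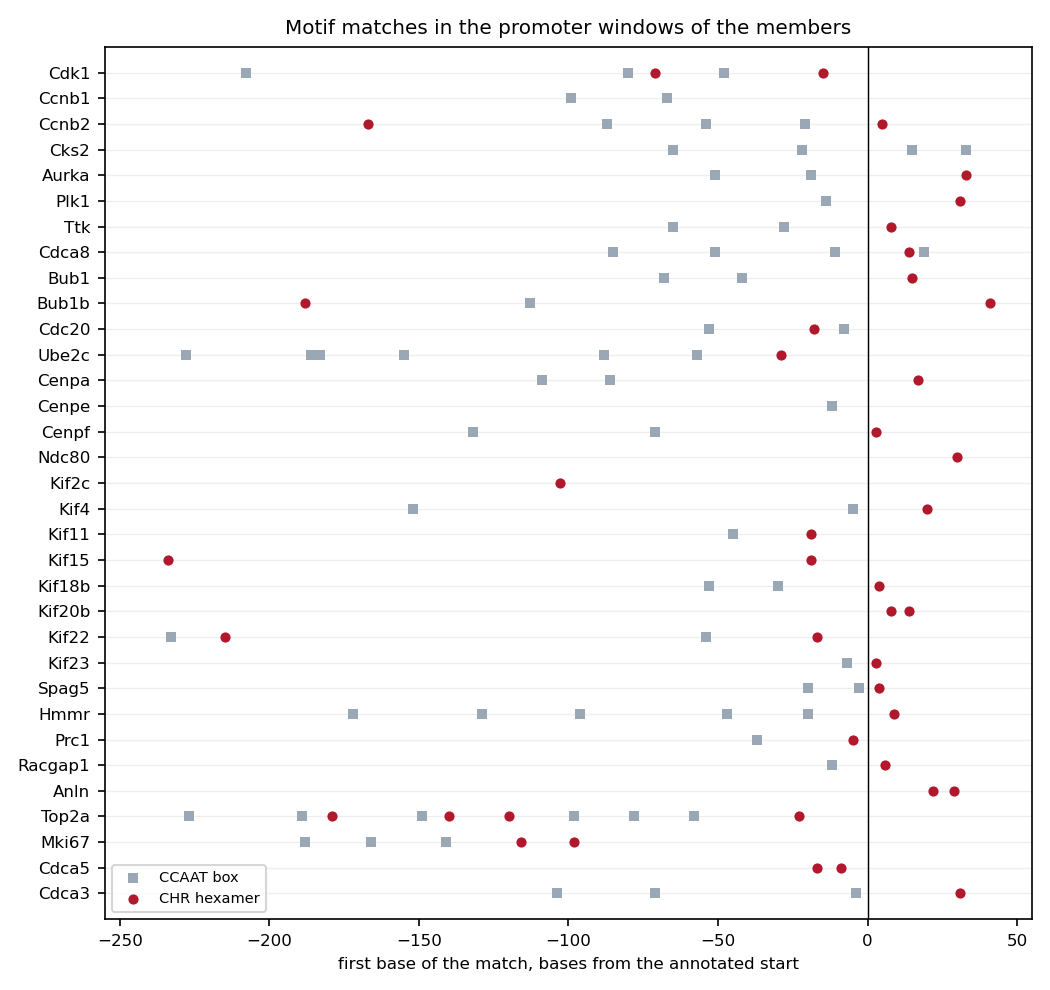
Position of each CHR hexamer (red circles) and CCAAT box (grey squares) in the windows of the 33 members with a match, as bases from the annotated start (vertical line). Most red circles lie within 50 bases of the start, and most grey squares lie upstream of it.

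The 3 members that belong to the chromosomal passenger complex, which corrects faulty spindle attachments and later drives cytokinesis, all fell. Birc5, the survivin subunit, stood at 57.4 and 76.0 FPKM with the normal diet, against 6.44 and 10.7 FPKM with the deficient diet. It was the member with the highest level on the normal diet, and its log2 change was -2.85 ± 0.29 (SE) with a limma adjusted p of 0.0323. Cdca8, the borealin subunit, had 37.0 and 50.2 FPKM against 4.83 and 2.67 FPKM, the most negative log2 change of the 46 genes at -3.25 ± 0.31. Aurkb, the kinase of the complex, had 19.0 and 25.7 FPKM against 2.32 and 1.43 FPKM, a change of -3.03 ± 0.28. Each deficient diet library lay far below both normal diet libraries for these 3 genes. The fourth subunit, Incenp, which is not among the 46, had 15.2 and 16.3 against 7.56 and 9.69 FPKM and did not pass (limma adjusted p = 0.114).

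Of the cyclins and their partners 1 of 4 tested fell. Ccna2, cyclin A, acts in both S phase and G2 and had 10.8 and 14.1 FPKM on the normal diet against 1.76 and 2.45 FPKM on the deficient diet, a 5.91-fold difference of means. Its log2 change was -2.11 ± 0.26 with a limma adjusted p of 0.0392. The B cyclins, which carry Cdk1 into mitosis, were low in all libraries. Ccnb1 had 3.15 and 2.99 against 0.479 and 0.548 FPKM, and Ccnb2 had 1.55 and 1.40 against 0.0721 and 0.372 FPKM. Neither passed (limma adjusted p = 0.0604 and 0.135), although their mean ratios of 5.98 and 6.63 were like that of Ccna2. Foxm1, a transcription factor that switches on G2 and M genes, was listed at 3.38 and 2.92 FPKM against 1.26 and 0 FPKM (limma adjusted p = 0.156).

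Cdk1 and Cks2 stood at the bottom of the levels. Cdk1, the kinase that every cell needs to enter mitosis, was listed at 0.473 and 0.972 FPKM with the normal diet, against 0.208 and 0.0478 FPKM with the deficient diet. Cks2, a small subunit of cyclin-dependent kinases, had 0.173 and 0.299 against 0.0884 and 0 FPKM. Both were lower in the deficient diet libraries without overlap but lay below the filter, so no test was made. Of the sequence words of 36 bases in the GENCODE transcripts of Cks2, 31.2% also occur in transcripts of another gene, among them processed pseudogenes, and for Cdk1 0% do. For Ccnb1, which has a processed pseudogene, the share was 26.4%. How the authors' quantifier placed reads with more than 1 match is not given in the sources used here, so the levels of Cks2 and Ccnb1 are uncertain.

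Of Plk1, Aurka, Ttk, Melk and Plk4, grouped here as mitotic kinases, Plk1 alone passed. Plk1, the Polo-like kinase of centrosome maturation and mitotic entry, had 7.19 and 11.4 FPKM on the normal diet against 0.964 and 0.999 FPKM on the deficient diet. Its log2 change was -2.35 ± 0.30 with a limma adjusted p of 0.0399, and it passed the filter through the normal diet libraries alone. It shares 16.1% of its words, mostly with a processed pseudogene. Aurka, the Aurora kinase of the spindle poles, had 15.1 and 24.3 against 6.66 and 4.21 FPKM (limma adjusted p = 0.0726). Ttk, the Mps1 kinase of the spindle checkpoint, had 2.56 and 2.62 against 0.0966 and 0.203 FPKM, a mean ratio of 17.3 from low levels (limma adjusted p = 0.05405). Melk, a kinase abundant in dividing cells, had 1.97 and 1.06 against 0.204 and 0.0468 FPKM (limma adjusted p = 0.135). Plk4, which starts centriole duplication, stood apart by its size of difference, with 8.77 and 9.33 against 5.79 and 7.69 FPKM and a log2 change of -0.39 ± 0.23 (limma adjusted p = 0.382).

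Of 5 members of the spindle checkpoint and of the APC/C pathway, 2 fell, Ube2c and Cdc20. Ube2c, the ubiquitin-conjugating enzyme of the APC/C, had 33.4 and 39.5 FPKM on the normal diet against 5.38 and 5.36 FPKM on the deficient diet. Its log2 change was -2.55 ± 0.18, with the smallest adjusted p of the 46 genes (0.0290 in limma). Cdc20, the activator that brings substrates to the APC/C, had 23.5 and 28.7 against 7.64 and 8.16 FPKM, a 3.30-fold difference of means and a log2 change of -1.60 ± 0.19 (limma adjusted p = 0.0365). Both are partly ambiguous by sequence, since 21.9% of the words of Ube2c also lie in another gene, most often its neighbour Tnnc2, and 20.8% of those of Cdc20, most often in a processed pseudogene. Of the checkpoint proteins, Bub1b, also called BubR1, had 5.25 and 9.09 against 0.877 and 1.11 FPKM, and Bub1 had 4.52 and 4.30 against 1.26 and 0.257 FPKM (limma adjusted p = 0.0543 and 0.0868). Mad2l1, which holds Cdc20 inactive, had a smaller difference, 3.19 and 3.74 against 1.81 and 1.06 FPKM (limma adjusted p = 0.164). Outside the 46, 0 of 15 genes of the APC/C itself and its other partners passed in either direction in limma, 0 of them at an unadjusted p under 0.05, with a median log2 change of 0.04. The most abundant of them, Anapc5, had 42.2 and 40.7 against 46.3 and 50.6 FPKM. Ube2s, the conjugating enzyme that works after Ube2c, had 48.7 and 45.9 against 22.4 and 1.65 FPKM, a 3.94-fold difference of means with deficient diet libraries far apart (log2 change -2.62 ± 1.02, limma adjusted p = 0.224).

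Of the centromere and kinetochore genes, which mark and build the attachment site of the chromosome, 1 of 5 fell. Cenpa, the histone variant of centromeres, had 18.2 and 15.5 FPKM on the normal diet against 5.42 and 5.75 FPKM on the deficient diet (log2 change -1.43 ± 0.20, limma adjusted p = 0.0441). Ndc80 and Nuf2 form an arm of the complex that grips microtubules. Ndc80 had 6.19 and 9.38 against 1.56 and 0.670 FPKM, and Nuf2 had 4.71 and 8.91 against 0.712 and 1.22 FPKM. Their mean ratios were 6.98 and 7.04, and neither passed (limma adjusted p = 0.0553 and 0.0677). Of the other arm of that complex, which lies outside the 46 genes, Spc24 fell from 19.1 and 27.0 to 2.31 and 2.50 FPKM (log2 change -2.80 ± 0.25, limma adjusted p = 0.0323). Its partner Spc25 had 2.84 and 4.98 against 0.601 and 0.242 FPKM and did not pass (limma adjusted p = 0.0724). Cenpe, a kinetochore motor, had 2.70 and 4.15 against 0.260 and 0.170 FPKM, and Cenpf had 1.37 and 1.18 against 0.0519 and 0.577 FPKM (limma adjusted p = 0.0543 and 0.236).

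Kinesins, the motors that move spindle fibres and chromosomes, held 4 falls among 9 genes. Kif11, or Eg5, pushes the spindle poles apart and had 11.7 and 16.6 FPKM against 1.44 and 0.980 FPKM, a log2 change of -2.76 ± 0.28. Kif15, which can take over that task, had 6.22 and 6.94 against 0.308 and 0.365 FPKM, the largest mean ratio of the 46 genes at 19.6, with a log2 change of -2.50 ± 0.25. Both had a limma adjusted p of 0.0323, but Kif15 passed the filter through the normal diet libraries alone. Its ratio rests on a deficient diet mean of 0.336 FPKM. Kif22, a chromokinesin, had 12.4 and 19.9 against 2.50 and 2.35 FPKM, and Kif20a, a motor of cytokinesis, had 12.2 and 16.2 against 3.29 and 2.99 FPKM, each with a limma adjusted p of 0.0399. Kif20a shares 26.3% of its words with Cdc23, so its value is uncertain. Kif2c, which shortens microtubules, Kif4, a chromokinesin, and Kif18b did not pass (limma adjusted p = 0.0620, 0.0588 and 0.0849), with mean ratios of 7.62, 6.21 and 10.1 from normal diet means of 4.65, 3.90 and 2.20 FPKM. Kif23 and Kif20b had the smaller ratios of 2.25 and 2.16. Kif23, which pairs with Racgap1 in cytokinesis, had 2.35 and 3.04 against 1.26 and 1.14 FPKM. Kif20b, a motor of late cytokinesis, had 6.20 and 6.57 against 2.001 and 3.92 FPKM.

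Among 8 genes of the spindle and of cytokinesis 5 fell. Hmmr, a spindle assembly factor and hyaluronan receptor, had 10.01 and 10.4 FPKM on the normal diet against 0.395 and 0.685 FPKM on the deficient diet (log2 change -2.87 ± 0.25, limma adjusted p = 0.0323). Its libraries of each diet lay close together, and its mean ratio of 18.9 was second to that of Kif15. That ratio rests on a deficient diet mean of 0.540 FPKM, and Hmmr passed the filter through the normal diet libraries alone. Tpx2, the activator of Aurka on the spindle, had 12.3 and 13.7 against 1.73 and 2.41 FPKM, and Nusap1 had 19.2 and 23.7 against 4.17 and 3.94 FPKM. Prc1, which bundles the central spindle, had 5.004 and 5.54 against 0.977 and 0.879 FPKM and also passed the filter through the normal diet libraries alone. Racgap1 kept the highest level of the 46 genes on the deficient diet. It acts at the cleavage furrow in cytokinesis and had 35.03 and 36.5 against 9.60 and 11.5 FPKM, a 3.38-fold difference (log2 change -1.67 ± 0.18, limma adjusted p = 0.0323). Tacc3, Spag5 and Anln did not pass (limma adjusted p = 0.0736, 0.0849 and 0.232). Of these, Tacc3, which stabilizes spindle microtubules, had 10.2 and 13.9 against 4.09 and 4.90 FPKM. Spag5, or astrin, of the spindle and kinetochores, had 3.01 and 5.09 against 0.415 and 0.891 FPKM. Anln, of the contractile ring, had 1.21 and 1.54 against 0.349 and 0.560 FPKM, the second smallest change by fitted log2 value among the tested members.

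Of 5 genes of chromosome structure and related functions 3 fell. Top2a, which untangles sister chromatids, had 17.9 and 19.3 against 2.87 and 2.51 FPKM, and Mki67, the Ki-67 antigen that coats mitotic chromosomes, had 8.35 and 6.07 against 0.998 and 1.19 FPKM. Cdca2, or Repo-Man, which brings a phosphatase to the chromosomes as mitosis ends, had 9.15 and 9.85 against 1.57 and 1.81 FPKM (log2 change -1.97 ± 0.23, limma adjusted p = 0.0365). Cdca3, which helps cells enter mitosis, had 19.2 and 20.9 against 3.24 and 6.21 FPKM and missed the threshold (limma adjusted p = 0.05405). Cdca5, sororin, which protects cohesion of sister chromatids, had 3.12 and 3.76 against 0.874 and 0.823 FPKM (limma adjusted p = 0.0775).

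**Figure D3:**
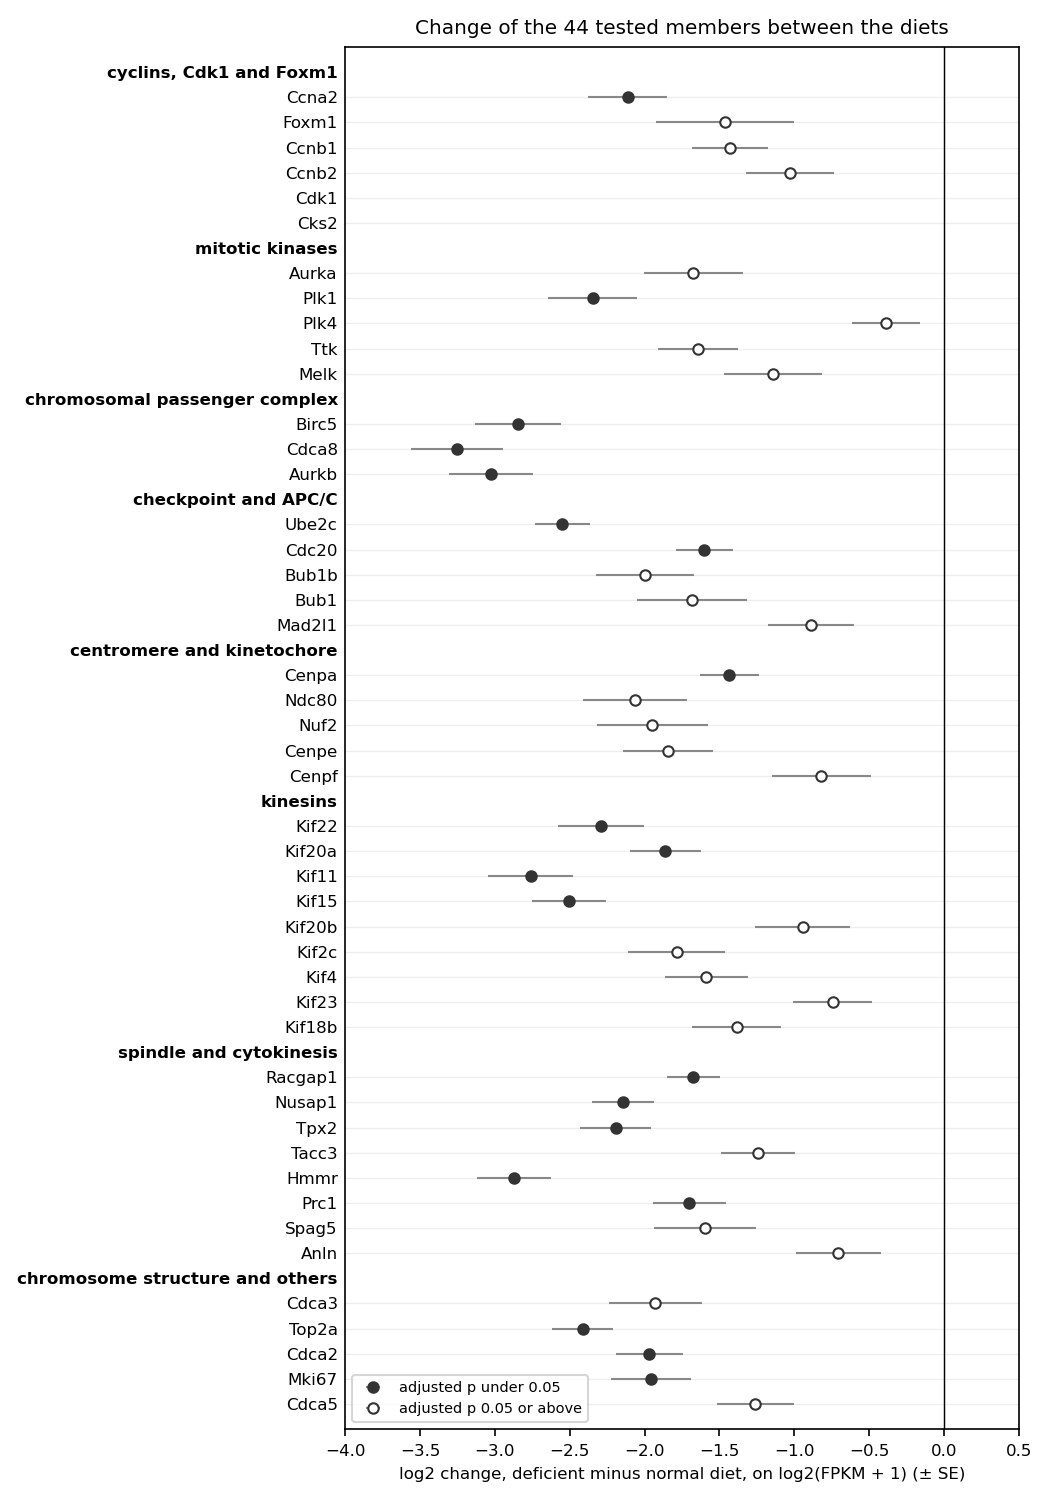
Fitted log2 change (deficient minus normal diet) of the 44 tested members with its standard error, grouped by role; filled points passed an adjusted p of 0.05 in limma. Every point lies left of 0, from -3.25 for Cdca8 to -0.39 for Plk4, and the 3 genes of the chromosomal passenger complex are all filled.

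The order of the members by level was similar in both diets. Across the 46 genes the Spearman correlation of mean FPKM between the diets was 0.873, beside 0.978 for the pair of normal diet libraries and 0.898 for the deficient diet pair. These values describe genes that share their libraries, with no test. On the normal diet the order began with Birc5, Cdca8, Ube2c and Racgap1 at means of 66.7, 43.6, 36.4 and 35.7 FPKM. Birc5 lay above Cdca8 in every library, while Cdca8 and Ube2c overlapped, as did Ube2c and Racgap1. On the deficient diet it began with Racgap1, Birc5, Cdc20 and Plk4 at means of 10.6, 8.57, 7.90 and 6.74 FPKM, each overlapping its neighbour in the order. The median member stood at percentile 65.0 of all genes in the table on the normal diet and at 43.2 on the deficient diet.

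In 2 lists of related genes outside the 46, some genes fell and none rose. Of 75 other mitosis genes 65 were tested, and 12 fell and 0 rose, with a median log2 change of -1.01 against 0.04 for all genes tested. The filter let 14 of the 65 pass through the normal diet libraries alone. Of the 75, 65 were lower without overlap, where 22.8% of genes above 0 in any library were. Only 1 was higher without overlap, Cenpl, a centromere protein, at 24.01 and 28.3 against 28.6 and 28.6 FPKM. Besides Spc24, the largest falls were those of Ckap2, a spindle protein, from 7.45 and 11.7 to 0.405 and 0.666 FPKM, Fam64a, from 14.6 and 11.3 to 1.27 and 2.17 FPKM, and Nek2, a centrosome kinase, from 10.6 and 9.77 to 2.05 and 0.729 FPKM. Lmnb1, of the nuclear lamina and the highest of this list by its mean over the 4 libraries, had 51.8 and 60.9 against 49.4 and 46.4 FPKM, and Pttg1, the securin that the APC/C destroys, had 59.0 and 51.8 against 46.9 and 43.0 FPKM. Neither passed. Smc4, a condensin subunit and the highest on the normal diet alone, had 50.2 and 69.3 against 29.7 and 31.3 FPKM and did not pass either (limma adjusted p = 0.0866). Of the 57 S phase genes 54 were tested, and 9 fell and 0 rose, with a median of -0.87, and 10 of the 54 passed the filter through the normal diet libraries alone. The 9 included 2 of those 10, Mcm10, of replication initiation, from 4.67 and 5.30 to 0.281 and 0.383 FPKM, and Rrm2, the ribonucleotide reductase subunit, from 4.39 and 5.04 to 0.302 and 0.718 FPKM. 2810417H13Rik, which encodes a partner of PCNA, fell 10.1-fold by mean FPKM. The most abundant S phase gene, Slbp, which binds histone mRNA, had 170.2 and 182.4 against 150.3 and 104.2 FPKM and did not pass (limma adjusted p = 0.262). Of the 57, 48 were lower without overlap, beside the same 22.8%. The 3 that were higher without overlap, Gins4, Ung and Blm, did not pass (limma adjusted p = 0.220, 0.284 and 0.362). The difference between the lists was not tested.

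Of 22 genes of G1 and of the Rb and E2F families 20 were tested and 1 fell, Ccne1, cyclin E, from 11.3 and 9.90 to 1.88 and 1.12 FPKM (log2 change -2.23 ± 0.27, limma adjusted p = 0.0369). Ccnd3, the most abundant of them, had 450.9 and 363.8 against 175.5 and 205.0 FPKM (limma adjusted p = 0.05405). None of 10 tested genes of MuvB, Myb and NF-Y passed, nor did any of 14 CDK inhibitors and quiescence genes, in limma, with 3 and 2 at an unadjusted p under 0.05. In these 2 lists the medians were -0.21 and 0.04. Btg2, an antiproliferative gene and the most abundant of them, had 976.3 and 941.0 against 880.3 and 1031 FPKM, with diets that overlapped. Mybl2, the B-Myb gene, had 1.04 and 1.43 against 0.302 and 0.315 FPKM. Cdkn1a, the p21 inhibitor of cyclin-dependent kinases, had 15.7 and 35.4 FPKM on the normal diet against 112.7 and 105.2 FPKM on the deficient diet, a difference in the other direction that did not pass (log2 change 2.16 ± 0.39, limma adjusted p = 0.0604). Incenp, Mybl2, Cdkn1a, Ube2s, Spc25, Smc4, Cenpl, Gins4, Ung, Blm and Klra8 were chosen after their values were seen.

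**Figure D4:**
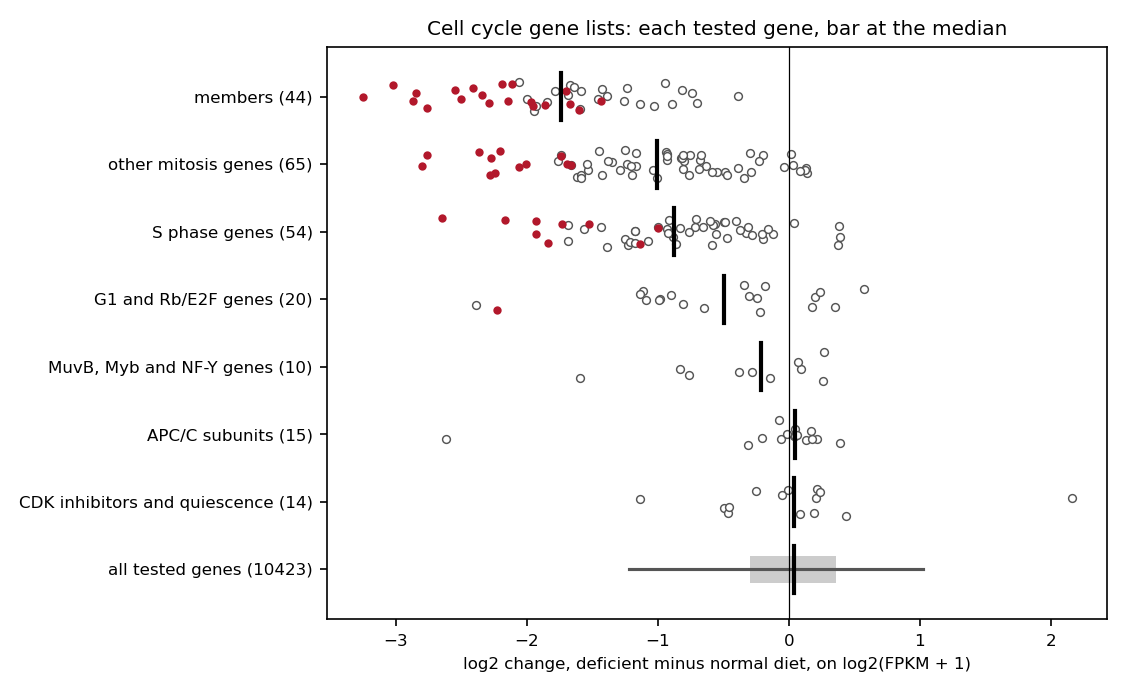
Fitted log2 change of every tested gene of 7 cell cycle lists (red points called in limma, open points not; black bars are medians), with all 10423 tested genes as a grey box from the 25th to the 75th percentile and a line from the 5th to the 95th. The median moves from -1.74 in the members to -1.01, -0.87 and -0.49 in other mitosis, S phase and G1 genes, and is 0.04 for the APC/C subunits.

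Other measures of the libraries moved with the diet as well. Markers of CD4, CD8 and natural killer cells include Cd4, Cd8a, Cd8b1 and Klrb1c, the genes of the gate's CD4, CD8 and NK1.1. The list also holds Eomes, Zbtb7b, Ncr1 and Klra8, which the gate did not use. Together the 8 genes summed to 88.3 and 65.9 FPKM on the normal diet against 29.2 and 27.1 FPKM on the deficient diet. Of these 8 genes 7 were lower without overlap, where 22.8% of genes above 0 in any library were. None of the 6 tested passed in limma, and 4 had an unadjusted p under 0.05. The most abundant, Cd8b1, had 25.2 and 19.3 against 13.4 and 13.97 FPKM (limma adjusted p = 0.153). Klra8, also lower without overlap, was not tested and was listed at 0.0850 and 0.635 against 2.94e-07 and 5.06e-08 FPKM. Enzymes of the exocrine pancreas summed to 10032 and 3002 against 758.1 and 282.2 FPKM, with 9 of 9 lower without overlap and 1 called, the elastase gene Cela2a. T cell markers were at 2842 and 2332 against 2503 and 2853 FPKM, sums that overlapped, with 7 of 10 genes lower and 3 higher without overlap, and none passed in limma (3 had an unadjusted p under 0.05). The share of all genes that were higher without overlap was not counted. Macrophage markers, at 147.6 and 2099 against 1328 and 712.6 FPKM, overlapped between the diets, as did the sums for B cell, neutrophil, hepatocyte, endothelial and erythroid markers. Normal diet replicate 2, which had the highest sums for macrophage, B cell, neutrophil, hepatocyte and endothelial markers, was also above normal diet replicate 1 in 38 of the 46 genes, where 50.8% of tested genes were. Deficient diet replicate 2, which had the lower macrophage sum of its pair, was above deficient diet replicate 1 in 24 of the 46 genes. The share of all tested genes for this deficient diet pair was not counted. The part of these other cell types in the lower mitotic levels was not tested.

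**Figure D5:**
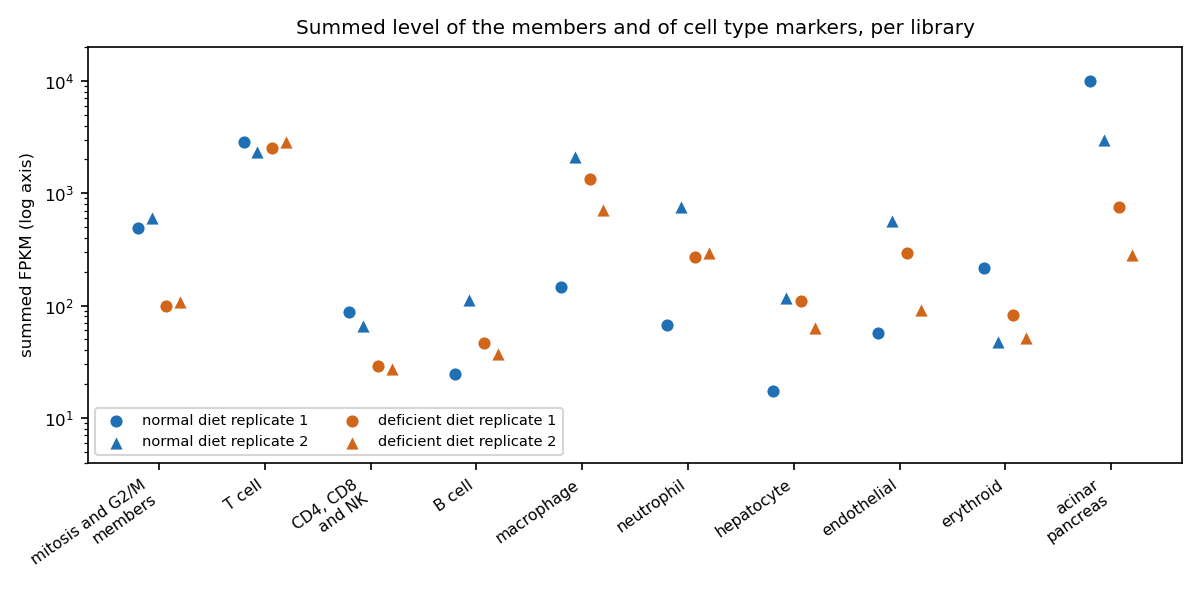
Summed FPKM per library, on a log axis, of the 46 genes and of marker lists for T cells and for other cell types; colours and symbols mark diet and replicate. The member sums separate by diet at 484.9 and 600.1 against 99.8 and 107.1 FPKM, as do those of the CD4, CD8 and NK list and of the acinar pancreas list.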

How the data were processed

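The 4 libraries were made from RNA of sorted liver T cells with an Illumina TruSeq kit, per the labels' protocols. The deposited values were taken as FPKM because they are not whole, reach far below 1 and differ in their sums, from 370112 to 389403 per library; neither the table nor the labels name the unit. The submitters' processing notes name Bowtie 0.12.2 and build mm8; the sources used here do not give the quantifier, annotation or filters. FPKM values without the authors' transcript lengths keep no read counts, so the depth, and with it the counting error, is unknown.

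Columns were matched to samples by title. Values were tested as log2(FPKM + 1) with limma 3.58.1 in R 4.3.3 (mean-variance trend, diet as single factor, 2 residual and 2.84 prior degrees of freedom). A run of this step on simulated data placed changes only in genes of higher level, so it did not cover changes in low genes. The pseudocount understates changes of low genes, and ratios are of mean FPKM. A permutation of 2 against 2 libraries cannot give a two-sided p below 0.333. Shared words of 36 bases were counted on both strands in GENCODE vM21 transcripts, which is not the authors' annotation. Members and lists were chosen with earlier results of these data known. Named from other lists were up to 4 called genes with the largest change and the 2 most abundant tested genes. The alternatives were pseudocounts, filters, normalizations, limma without trend, a replicate block, an adjusted p of 0.10 and leaving out each library.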

Additional observations from a re-analysis of the deposited data

How the results depend on the processing

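Every tested member kept a fitted change below 0 under each alternative, but calls depended on the settings. The counts were 20 members, 286 genes of the whole table, 12 other mitosis genes and 9 S phase genes. All fell to 0 without a filter on low values, where the smallest adjusted p of a member was 0.147 and 42 members had an unadjusted p under 0.05 in limma. With libraries left out in turn the counts ran from 0 to 11 members, 0 to 352 genes, 0 to 3 other mitosis genes and 0 to 1 S phase genes. Then only 1 diet has 2 libraries to give a spread, the lone library is assumed to vary alike, and power is lower. At an adjusted p of 0.10 the counts were 35, 912, 25 and 21. Quantile normalization gave 467 genes and 25 members; limma without the trend gave 141 genes, 18 members and 5 S phase genes. A filter of 5 FPKM also called 20 members, 19 of them shared with the 20 above (Prc1 was lost and Cdca3 gained). A filter on the mean of the 4 libraries, added after seeing the data, called the same 20. The median change of the tested members, -1.74, was -2.56 with a pseudocount of 0.1, -1.0001 with 5, and -2.06 with a filter of 5 FPKM, where 27 members were tested; over the libraries left out it ran from -2.03 to -1.76.

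The replicate numbers share no stated animal or batch. With the number as a block, 0 members, 0 genes, 0 other mitosis and 0 S phase genes passed in limma, with 38 members and 1844 genes at an unadjusted p under 0.05. Same-numbered libraries deviated in opposite ways (r = -0.284 across genes), and with the pairing crossed, tried after seeing the data, 3 members, 52 genes, 0 other mitosis and 0 S phase genes passed, with 44 and 36 of the last at an unadjusted p under 0.05. Unknown depth limits all low values.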
